A study of Homo sapiens with 4 samples.

Results

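The integrated stress response around ATF4 and the unfolded protein response of the endoplasmic reticulum (ER) were compared between MDA-MB-231, human breast cancer cells without hormone receptors or ERBB2 amplification, and their derivative with strong metastasis to the lung, LM2-4175 (column name LM2 in the authors' table). The 38 genes were taken by symbol from a list of members, and each symbol matched 1 row of the 57815 genes in the authors' table. They were divided by role into 16 genes of the ATF4 arm, 4 genes for the stress sensors and XBP1, and 18 genes of the chaperone arm, which serves folding and degradation in the ER downstream of ATF6 and XBP1. Both cell lines were untreated and grown in DMEM with serum, and the labels name no engineered change in either. RNA-Seq was done on 2 libraries per cell line, but the table holds 1 FPKM (a fragment count normalised for transcript length and library size) per gene and cell line with a lower and an upper bound, and the single libraries could not be examined. The differences given here therefore have no replicate check and no p-value.

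A gene was called where its status was OK, its mean FPKM was at least 0.5, the ratio of FPKM + 1 was at least 1.5-fold in either direction and the bounds of the cell lines did not overlap. All 38 members passed the filters, among 13911 genes that did. Changes are given as log2 ratios of FPKM + 1 in LM2-4175 over MDA-MB-231, and ratios of FPKM are written as fold. Depth per gene is not known from the table, and the bounds carry the precision. Their confidence level is not given in the sources used here, nor whether they cover variation between the libraries. Overlap of bounds therefore has no known error rate. The distance from FPKM to upper bound had a median of 29.0% over the members in MDA-MB-231 and 28.6% in LM2-4175, against 38.6% and 38.1% over all genes tested. The markers listed as detected in cells of this type, VIM, CD44, ZEB1, EGFR and AXL, were all at 26.1 FPKM or more. Of 5 markers listed as low in such cells, ESR1 and PGR were under 0.04 FPKM in both cell lines and CDH1 had 0.851 and 0.366 FPKM, but ERBB2 was detected at 35.0 and 22.8 FPKM and EPCAM at 12.3 and 4.93 FPKM, with EPCAM called lower in LM2-4175. Of 9 markers of blood, endothelial and lung epithelial cells only CD14 exceeded 0.16 FPKM, at 1.17 and 1.75 FPKM.

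In the integrated stress response, kinases that sense missing amino acids, unfolded proteins, viral RNA or lack of haem phosphorylate the initiation factor eIF2 alpha, which lowers general translation and favours translation of ATF4. ATF4 then activates genes for amino acid synthesis, amino acid import and feedback, and its protein level is set in large part by translation, which RNA-Seq does not measure. Unfolded proteins in the ER act through EIF2AK3 (PERK), ERN1 (IRE1 alpha) and ATF6. ERN1 splices XBP1 RNA, and spliced XBP1 and cleaved ATF6 activate chaperones, disulfide isomerases and degradation factors. The splicing of XBP1 and the cleavage of ATF6 cannot be read from a gene-level table.

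To show the elements through which these arms are known to act, the promoter windows of RefSeq (250 bases before to 50 bases after an annotated start, build GRCh38.p14) were searched on both strands. Windows were found for 35 of the 38 members, 49 windows in all, and PSPH, SHMT2 and PDIA3 had none. The ER stress response element was written as CCAAT and CCACG with 9 bases between them, so each match also holds a CCAAT box. It occurred in 27 of 35116 windows (0.0769%), and 9 of these 27 windows belong to members. By gene, 7 of the 25 genes with the element are members, since overlapping windows of CANX share the same site. In this form the element was found for HSPA5, HSP90B1, CALR, CANX, PDIA6 and CRELD2 of the chaperone arm and for XBP1. It was found for no gene of the ATF4 arm. Other arrangements of CCAAT and CCACG were not searched, so a gene without a match may still hold one. As the element was originally defined on promoters of such chaperones, this is a description and not an independent result. The matches are shown with the fixed letters in capitals, read along the gene, with CALR, CRELD2 and the second HSP90B1 match on the opposite strand:
HSPA5: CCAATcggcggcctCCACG
HSP90B1: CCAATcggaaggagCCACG
HSP90B1 on the opposite strand: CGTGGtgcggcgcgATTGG
CALR: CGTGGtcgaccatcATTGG
CANX: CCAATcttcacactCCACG
PDIA6: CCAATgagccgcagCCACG
CRELD2: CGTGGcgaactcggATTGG
XBP1: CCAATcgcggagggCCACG

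The composite element of C/EBP and ATF factors was written as TGATGNAA and occurred in 3.62% of all windows. It was found for ASNS, ATF3 and CHAC1 of the ATF4 arm and for HERPUD1. The unfolded protein response element, written as TGACGTGG, occurred in 0.729% of all windows and among the members only for HYOU1. No 2 of these matches overlapped. Whole windows are given for HSPA5, the chaperone used as the standard marker of ER stress, for ASNS, whose element lies 68 bases before the start, and for PHGDH, the member with the largest difference, in which none of the 3 elements was found. Capitals mark the element. The windows lie at chr9:125241294-125241593 (minus strand), chr7:97872359-97872658 (minus strand) and chr1:119711684-119711983 (plus strand) of GRCh38.p14:
HSPA5: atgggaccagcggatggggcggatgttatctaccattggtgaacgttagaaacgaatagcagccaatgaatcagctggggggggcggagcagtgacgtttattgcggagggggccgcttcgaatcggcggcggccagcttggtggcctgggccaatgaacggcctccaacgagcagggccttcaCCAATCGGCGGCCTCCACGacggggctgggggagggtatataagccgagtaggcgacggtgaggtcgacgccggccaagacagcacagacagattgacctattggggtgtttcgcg
ASNS: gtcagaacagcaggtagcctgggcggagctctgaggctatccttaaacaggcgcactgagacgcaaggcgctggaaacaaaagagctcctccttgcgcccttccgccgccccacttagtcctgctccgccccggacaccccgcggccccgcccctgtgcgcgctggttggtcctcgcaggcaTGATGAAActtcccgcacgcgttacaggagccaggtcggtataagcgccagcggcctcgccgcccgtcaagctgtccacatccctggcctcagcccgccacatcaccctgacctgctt
PHGDH: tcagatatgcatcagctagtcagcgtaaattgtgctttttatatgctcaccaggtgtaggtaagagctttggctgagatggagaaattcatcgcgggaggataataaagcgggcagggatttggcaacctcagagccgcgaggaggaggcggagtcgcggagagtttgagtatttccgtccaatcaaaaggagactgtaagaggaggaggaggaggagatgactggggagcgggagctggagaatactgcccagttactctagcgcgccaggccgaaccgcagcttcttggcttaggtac

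Of the 38 members, 6 were called higher in LM2-4175 and none was called lower. Among all genes tested the same rule called 9.27%, with 4.67% higher and 4.61% lower. The 6 genes were PHGDH, ATF4, ASNS and PSAT1 of the ATF4 arm, the sensor ERN1 and WFS1 of the chaperone arm. By arm, 4 of 16 genes were called higher in the ATF4 arm, 1 of 4 among the sensors and XBP1, and 1 of 18 in the chaperone arm. The median log2 ratio was 0.55 in the ATF4 arm and 0.12 in the chaperone arm, against -0.04 over all genes tested, so the arm medians differed by 0.43. Without PHGDH the ATF4 arm had a median of 0.53, and without WFS1 the chaperone arm had a median of 0.08. The arms were compared by counts and medians only, since genes are not replicates. The members were also chosen with earlier results of these data known, so the counts and medians are a description.

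**Figure D1:**
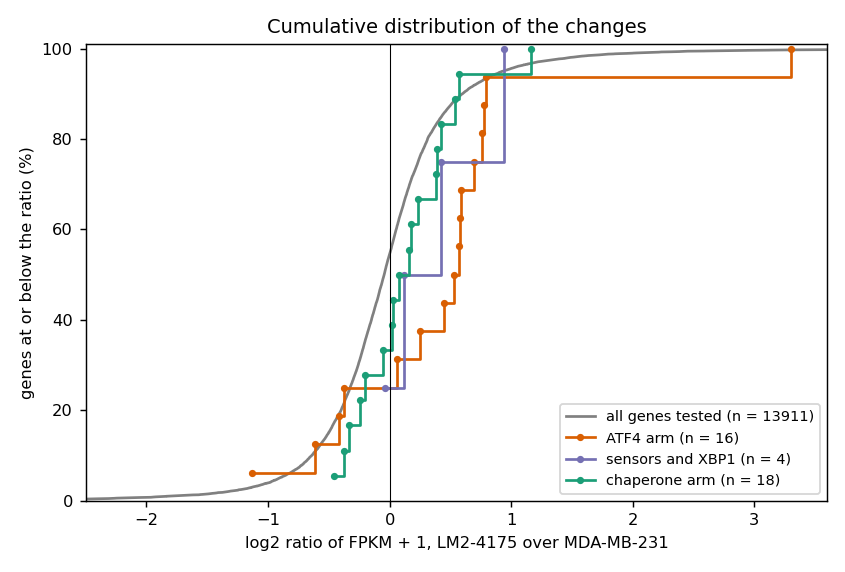
Cumulative share of genes (percent, vertical axis) at or below each log2 ratio of FPKM + 1 (horizontal axis). Curves show all 13911 genes tested, the 16 genes of the ATF4 arm and the 18 genes of the chaperone arm. A further curve shows the 4 genes for the sensors and XBP1. Members have 1 point per gene. The curve of the ATF4 arm crosses its middle at 0.55 and that of the chaperone arm at 0.12, while all genes have a median of -0.04.

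The fold without the bounds called 10.3% of all genes higher and 11.8% lower, and by it 8 members were higher and 2 lower. The additional members past 1.5-fold on the scale of FPKM + 1 were CHAC1 and SESN2 upwards and ATF5 and PSPH downwards, all 4 of the ATF4 arm. By the ratio of FPKM alone, DDIT3 of the ATF4 arm (1.53-fold) and DNAJB9 of the chaperone arm (1.56-fold) were also past it. With a fold of at least 2 and the bounds, 3.23% of all genes were higher and 2.90% lower, and of the members only PHGDH and WFS1 were called. The bounds without a fold limit called 4.74% higher and 4.64% lower and gave the same 6 members. The bounds of ATF4, PHGDH and WFS1 were apart by 15.7, 13.7 and 5.64 FPKM, but those of PSAT1, ASNS and ERN1 by only 0.519, 0.373 and 0.111 FPKM.

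**Figure D2:**
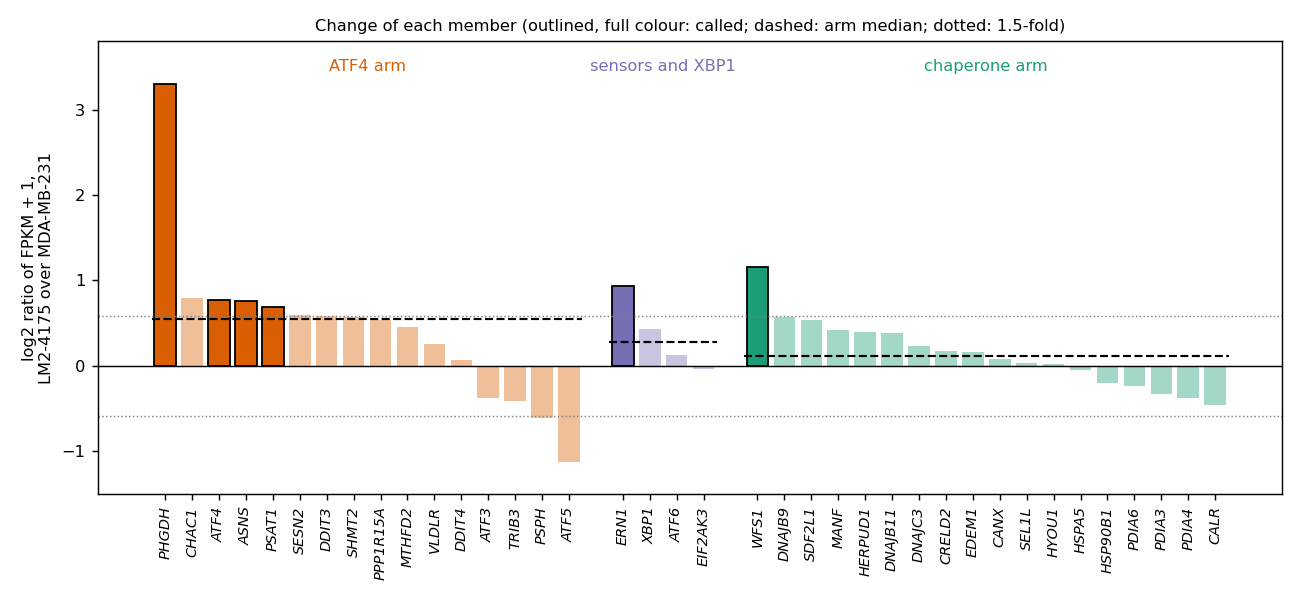
Log2 ratio of FPKM + 1, LM2-4175 over MDA-MB-231 (vertical axis), for each of the 38 members, ordered by size within the ATF4 arm, the sensors with XBP1 and the chaperone arm. Outlined bars in full colour are the 6 members called higher, dashed lines are arm medians and dotted lines mark 1.5-fold. PHGDH reaches 3.30, and no bar of the chaperone arm other than WFS1 passes the dotted lines.

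PHGDH showed the largest difference of the members, and the other enzymes of serine synthesis differed less. PHGDH, the dehydrogenase that starts serine synthesis from a glycolytic intermediate, was at 1.18 FPKM in MDA-MB-231 (0.692–1.67, the authors' lower and upper bound, as in all parentheses after an FPKM) and at 20.5 FPKM in LM2-4175 (15.4–25.6). This is a 17.3-fold ratio and a log2 ratio of 3.30, the increase at rank 43 among the 13911 genes tested. The gene (ENSG00000092621) is annotated at 120191034–120286841 on the forward strand of chromosome 1 (GRCh37), and its exons are overlapped by no other gene. PSAT1, the aminotransferase of the next step (ENSG00000135069, chromosome 9, 80912041–80945009 on the plus strand), measured 33.7 FPKM (25.8–41.7) in MDA-MB-231 and 55.1 FPKM (42.2–68.1) in LM2-4175, a 1.63-fold ratio. PSPH, the phosphatase that releases serine, differed in the opposite direction, with 19.3 FPKM (13.2–25.3) in MDA-MB-231 and 12.2 FPKM (8.30–16.2) in LM2-4175. Its bounds overlapped and its log2 ratio of -0.62 was not called.

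FPKM is set per transcript length, so the levels of the serine enzymes were also compared within each cell line. In MDA-MB-231 PSAT1 was highest and PHGDH lowest, 28.5-fold under PSAT1 and 16.3-fold under PSPH, and none of these bounds overlapped. In LM2-4175 PHGDH was 2.69-fold under PSAT1, and its lower bound of 15.4 FPKM lay below the upper bound of 16.2 FPKM of PSPH, so these neighbours in the order were not separated.

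ASNS, which makes asparagine from aspartate and is a classical ATF4 target (ENSG00000070669, chromosome 7 of GRCh37, 97480989–97501854 on the minus strand), stood at 12.8 FPKM in MDA-MB-231 (9.28–16.3) and 22.4 FPKM in LM2-4175 (16.7–28.1). The ratio was 1.75-fold and the log2 ratio 0.76. A further gene model of GENCODE 44 on the same strand covers 49.3% of its exon bases. The mitochondrial enzymes that pass one-carbon units from serine to folate were not called. SHMT2, which splits serine into glycine and a one-carbon unit, had 122.6 FPKM (91.2–154) in MDA-MB-231 and 182.7 FPKM (135–230) in LM2-4175, a ratio of 1.49-fold with overlapping bounds. MTHFD2, the next enzyme on this path, had 28.4 FPKM (9.61–47.2) and 39.1 FPKM (18.2–60.1). Summed over the 6 enzymes, MDA-MB-231 had 218 FPKM and LM2-4175 332.1 FPKM.

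Among the transcription factors, ATF4 alone was called. It reached 162.5 FPKM in MDA-MB-231 (125.5–199.5) and 278.5 FPKM in LM2-4175 (215.2–341.7), a 1.71-fold ratio and a log2 ratio of 0.77. The gene (ENSG00000128272, chromosome 22 of GRCh37, 39915700–39918688 on the plus strand) had the highest FPKM of the ATF4 arm in both cell lines. Its bounds overlapped those of SHMT2 in both, so this order was not resolved. ATF4 differed by 115.9 FPKM, while the 12 higher genes of the arm together differed by 281.5 FPKM. DDIT3, which encodes the factor CHOP, had 16.0 FPKM (2.66–29.3) in MDA-MB-231 and 24.4 FPKM (4.76–44.1) in LM2-4175, with the widest bounds of all members relative to the FPKM. Exons of other genes overlap 39.6% of its exon bases, among them MARS1 on the opposite strand. ATF5, a relative of ATF4, was lower with 11.6 FPKM (3.75–19.5) in LM2-4175 against 26.7 FPKM (13.4–39.9) in MDA-MB-231. Its log2 ratio of -1.13 was the lowest of the members, its bounds overlapped, and other genes cover 22.1% of its exons. ATF3, an early stress factor, had 5.17 FPKM (2.65–7.69) and 3.76 FPKM (2.00–5.53), a log2 ratio of -0.37.

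The stress effectors of the arm were not called, although 5 of 6 had a higher FPKM in LM2-4175. CHAC1, which degrades glutathione, had 1.73 FPKM (0.980–2.49) in MDA-MB-231 and 3.74 FPKM (2.35–5.13) in LM2-4175. Its ratio of 2.16-fold was the largest of this group, but its upper bound in MDA-MB-231 exceeded the lower bound in LM2-4175. SESN2, a leucine sensor that restrains mTORC1, had 2.24 FPKM (1.56–2.91) and 3.87 FPKM (2.79–4.94). Both genes were called higher once the columns were scaled to equal sums, where 5.28% of all genes tested were called higher and 3.93% lower. PPP1R15A, the phosphatase subunit that reverses eIF2 alpha phosphorylation, had 64.3 FPKM (49.5–79.0) and 93.3 FPKM (72.2–114). DDIT4, another inhibitor of mTORC1, was nearly level at 53.0 and 55.3 FPKM, and VLDLR, a lipoprotein receptor, had 4.22 and 5.22 FPKM. TRIB3, a pseudokinase that restrains the response, had 10.7 FPKM (7.995–13.5) in MDA-MB-231 and 7.78 FPKM (5.52–10.0) in LM2-4175, a log2 ratio of -0.42.

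**Figure D3:**
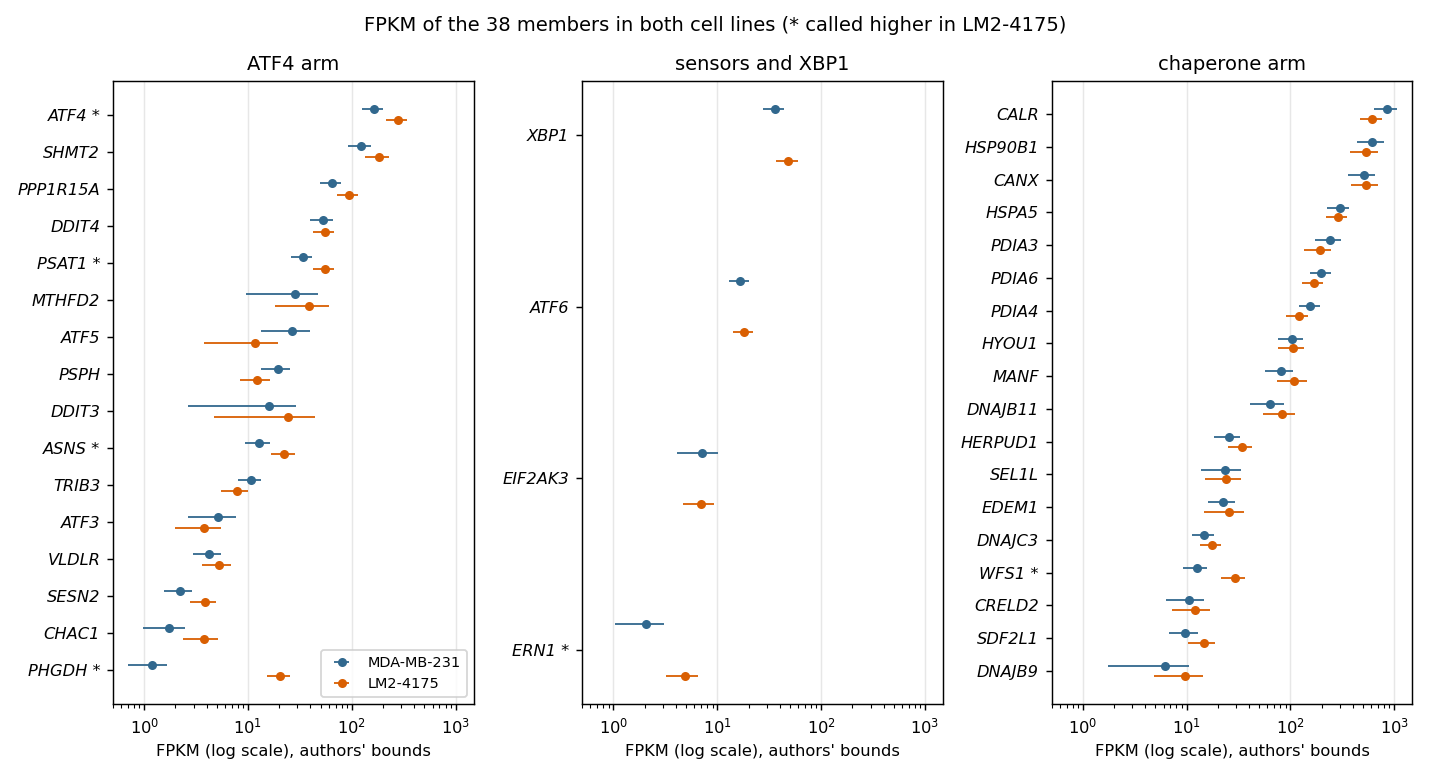
FPKM (log scale, horizontal axis) of the 38 members in MDA-MB-231 and LM2-4175, with the authors' lower and upper bounds as bars and 1 pooled value per cell line. Members are sorted by their FPKM in MDA-MB-231 within each panel, and the 6 marked by an asterisk have bounds that do not overlap. PHGDH moves from 1.18 to 20.5 FPKM, while the bars of CALR, HSP90B1, CANX and HSPA5 overlap.

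Of the sensors, ERN1 was called and the others were not. ERN1, the kinase and endoribonuclease that splices XBP1 RNA (ENSG00000178607, chromosome 17 of GRCh37, 62116440–62208179 on the minus strand), stood at 2.06 FPKM in MDA-MB-231 (1.03–3.08) and 4.85 FPKM in LM2-4175 (3.19–6.51), a 2.36-fold ratio and a log2 ratio of 0.94. It was no longer called after quantile normalization or with bounds widened by 10%, and antisense gene models cover 4.62% of its exon bases. EIF2AK3, the eIF2 alpha kinase of the ER, had 7.17 FPKM (4.10–10.2) and 6.96 FPKM (4.63–9.29), a log2 ratio of -0.04 whose sign changed with the scaling. ATF6 had 16.6 FPKM (12.9–20.4) and 18.2 FPKM (14.05–22.3). The order of the sensors was the same in both cell lines, with ATF6 above EIF2AK3 above ERN1. The bounds of EIF2AK3 and ERN1 were apart in MDA-MB-231 and overlapped in LM2-4175. XBP1 itself had 35.8 FPKM (27.4–44.1) in MDA-MB-231 and 48.4 FPKM (37.0–59.7) in LM2-4175, a log2 ratio of 0.43 that was not called.

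The chaperone arm held the most abundant members. CALR, a lectin chaperone that binds calcium, was highest in both cell lines with 847.4 FPKM in MDA-MB-231 (638.8–1056) and 616 FPKM in LM2-4175 (467.5–764.5). HSP90B1, the HSP90 of the ER, had 616.5 FPKM (440.7–792.3) and 536 FPKM (379–692.9), and CANX, the membrane-bound lectin chaperone, 509.6 FPKM (359.5–659.6) and 538 FPKM (384.6–691.5). The bounds of these 3 genes overlapped each other in both cell lines, so their order was not resolved in either. HSPA5 (BiP), the chaperone that also keeps the sensors inactive, had 297.5 FPKM (226.4–368.6) in MDA-MB-231 and 286.5 FPKM (218–355) in LM2-4175. Its log2 ratio of -0.05 turned to 0.03 with columns of equal sum, and to 0.16 after quantile normalization. The 18 genes summed to 3242 FPKM in MDA-MB-231 and 2921 FPKM in LM2-4175. All genes of the table summed to 632944 and 598147 FPKM, of which the arm held 0.512% and 0.488%. The 6 lower genes together fell short by 439.1 FPKM, of which CALR gave 231.4 FPKM, and the 12 higher genes added 118.4 FPKM.

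All 3 disulfide isomerases had a lower FPKM in LM2-4175, without a call. PDIA3, which works on glycoproteins with the lectin chaperones, had 240.8 FPKM (174–307.7) in MDA-MB-231 and 191.3 FPKM (136.6–246.1) in LM2-4175. PDIA4 had 155.9 FPKM (120.1–191.7) and 119.8 FPKM (91.6–148), and PDIA6 198.9 FPKM (153.3–244.6) and 168.3 FPKM (129.7–207). Their log2 ratios ran from -0.38 to -0.24. Of the protein-coding genes tested within 3 Mb of PDIA4, 5 of 34 were higher in LM2-4175 (median log2 ratio -0.36), and near PDIA6 6 of 22 were (median -0.30), while near PDIA3 31 of 65 were (median -0.04). The part of these surroundings in the values of the isomerases was not tested.

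The cofactors and degradation genes lay on the other side of zero. DNAJB9, a cofactor of HSPA5, had 6.18 FPKM (1.76–10.6) in MDA-MB-231 against 9.66 FPKM (4.86–14.5) in LM2-4175 (log2 ratio 0.57). The cofactors DNAJB11 and DNAJC3 had log2 ratios of 0.38 and 0.23, and SDF2L1, a partner of DNAJB11, went from 9.74 FPKM (6.72–12.8) in MDA-MB-231 to 14.6 FPKM (10.4–18.8) in LM2-4175 with overlapping bounds (0.54). HYOU1, which exchanges nucleotides on HSPA5, was level at 104.6 and 106.3 FPKM. MANF, a small ER protein that binds HSPA5, had 81.5 FPKM (56.8–106.2) and 109.4 FPKM (74.9–144), and CRELD2 had 10.5 and 12.0 FPKM. HERPUD1, EDEM1 and SEL1L, which act in ER-associated degradation, had log2 ratios of 0.39, 0.16 and 0.03. None of these 10 genes was called.

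WFS1, an ER membrane protein linked to calcium balance and to the restraint of ATF6, was the 1 gene called in the chaperone arm (ENSG00000109501, chromosome 4 of GRCh37, 6271576–6304992 on the plus strand). With 12.5 FPKM (9.25–15.7) in MDA-MB-231 and 29.1 FPKM (21.4–36.9) in LM2-4175 its log2 ratio was 1.16, at the 96.7 percentile of all genes tested. The neighbouring gene PPP2R2C was called higher as well, with a log2 ratio of 2.39, whereas 9 of the 28 protein-coding genes tested within 3 Mb of WFS1 were higher and their median was -0.15. An antisense gene model covers 5.97% of the exon bases of WFS1.

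Within the chaperone arm the sign of the log2 ratio differed with the level. Of the 8 genes with a mean of at least 100 FPKM, 6 were lower in LM2-4175 (median log2 ratio -0.22), with HSPA5 leaving these 6 under equal-sum scaling and quantile normalization, and all 10 genes with a mean under 100 FPKM were higher (median 0.38). Over all genes tested, 34.7% of 986 genes at or above this level were higher, with a median of -0.13, and 46.3% of 12925 genes below it, with a median of -0.04. In the ATF4 arm, both genes at or above the level, ATF4 and SHMT2, were higher. The level of 100 FPKM was chosen after the values were seen, and with WFS1 as the single call no test was made of this split.

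**Figure D4:**
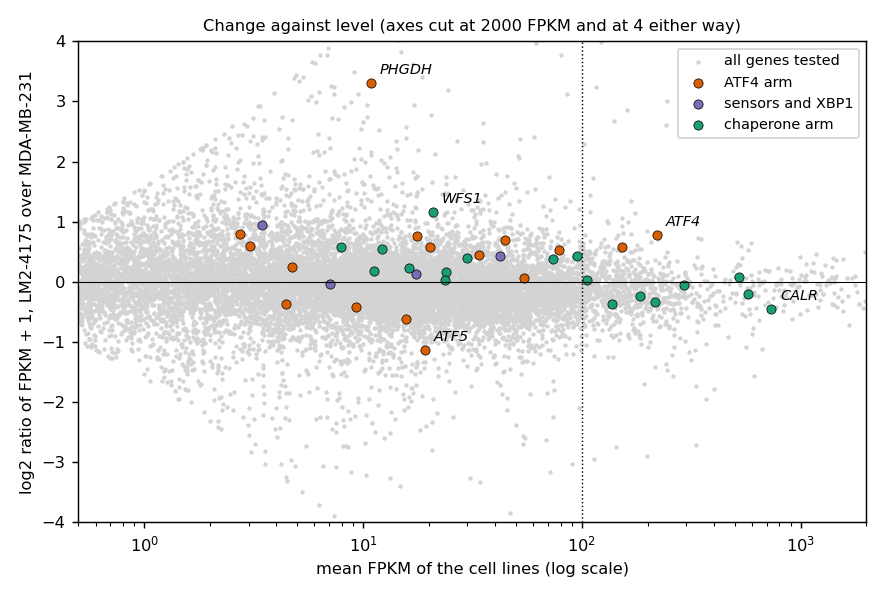
Log2 ratio of FPKM + 1, LM2-4175 over MDA-MB-231 (vertical axis), against the mean FPKM of the cell lines (log scale, horizontal axis) for all genes tested (grey) and the members of the 3 groups (colours), with a dotted line at 100 FPKM. Right of the line 6 of 8 chaperone-arm genes lie below 0, and left of it all 10 lie above 0.

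The surroundings of the called members were compared on GRCh37. Around PHGDH 6 of 12 protein-coding genes tested within 3 Mb were higher in LM2-4175 with a median log2 ratio of 0.04. For ATF4, 41 of 84 neighbours were higher (median -0.01), for PSAT1 3 of 5 (0.04) and for ERN1 19 of 33 (0.03). ASNS was higher in a region where only 10 of 61 neighbours were (median -0.36). PSPH, on the same chromosome 7, was lower where 1 of 11 neighbours was higher and 4 were called lower (median -0.53), and HSPA5 lay where 8 of 54 were higher (median -0.41). The part of the surroundings in the values of these genes was not tested.

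**Figure D5:**
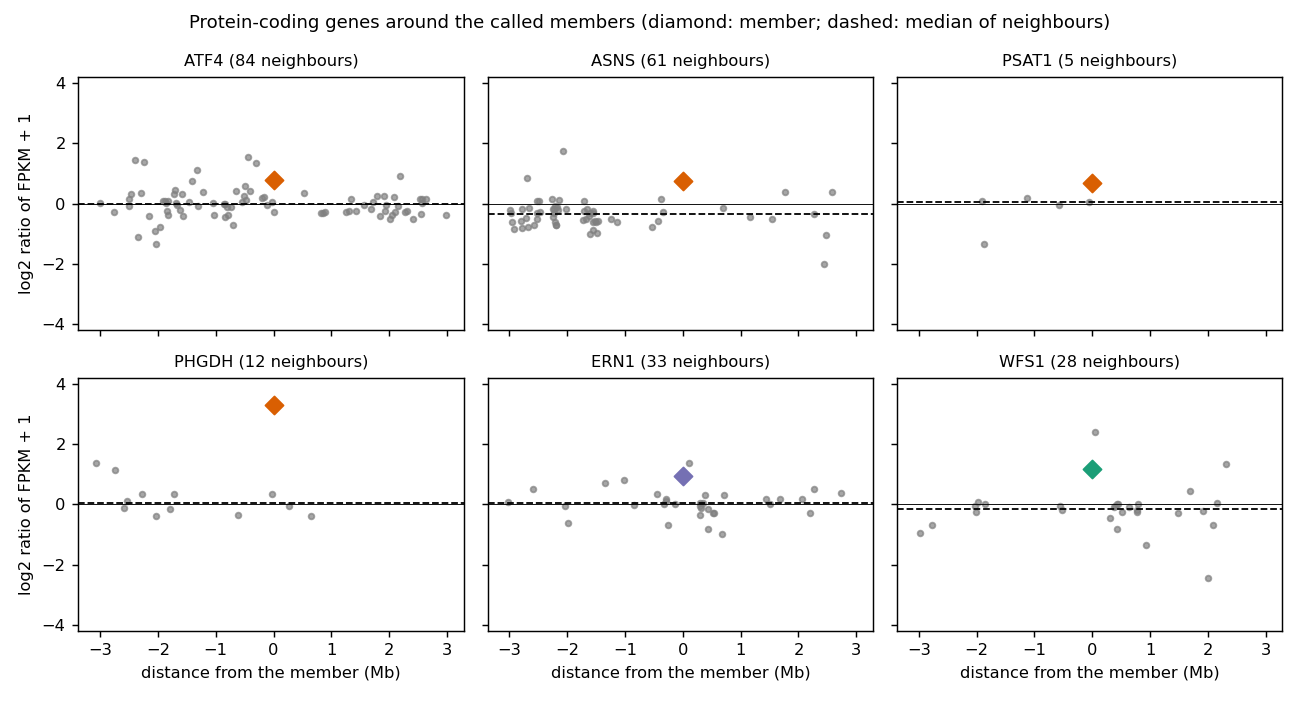
Log2 ratio of FPKM + 1 (vertical axis) of protein-coding genes tested within 3 Mb of each of the 6 called members. The horizontal axis gives the distance (Mb) from the member's start to the neighbour's edge that comes first along the member's direction of transcription. Diamonds are the members, grey points the neighbours and dashed lines the neighbours' medians, which run from -0.36 around ASNS to 0.04 around PHGDH and PSAT1.

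Other genes of the pathway were taken from 4 further lists, and values are given from MDA-MB-231 to LM2-4175. Their calls stand beside the 9.27% called over all genes tested, and the shares in the eIF2, folding and degradation lists (7.69%, 12.0% and 5.26%) were near it. Of 13 genes for the other eIF2 alpha kinases and the eIF2 machinery, none was called higher and 1 was called lower, with a median log2 ratio of -0.19. The gene called was EIF2S3, the gamma subunit of eIF2, which fell from 105.6 FPKM (75.0–136.2) to 44.3 FPKM (29.5–59.1).

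Of 30 other genes linked to ATF4, 27 were tested, and 4 were called higher and 2 lower (22.2% called, median 0.16). NUPR1, a stress-induced nuclear protein, rose from 1.81 FPKM (0.924–2.69) to 11.5 FPKM (7.97–15.1). CEBPB and CEBPG, dimer partners of ATF4, rose with log2 ratios of 1.88 and 0.68, from 5.45 to 22.8 FPKM and from 9.21 to 15.4 FPKM. CARS, a cysteinyl-tRNA synthetase, rose from 31.7 FPKM (23.6–39.8) to 56.9 FPKM (42.2–71.6). In the opposite direction, SLC7A5, a transporter of large neutral amino acids, fell from 113.1 FPKM (86.0–140) to 53.9 FPKM (40.8–66.9), and TXNIP, an inhibitor of thioredoxin, fell from 72.4 to 18.3 FPKM. Genes linked to ATF4 were thus called in both directions.

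Of 25 other genes of ER folding and its regulation, 1 was called higher and 2 lower (median -0.04). ERO1LB, an oxidase that recharges disulfide isomerases, rose from 1.85 FPKM (1.02–2.69) to 6.16 FPKM (3.0–9.33). MBTPS2, the site-2 protease that completes the cleavage of ATF6, fell from 16.3 FPKM (12.2–20.4) to 7.75 FPKM (5.58–9.93), and CREB3L1, a membrane-bound factor cleaved in the same way, fell from 58.8 to 22.4 FPKM. Of 20 genes of ER-associated degradation, 19 were tested and 1 was called higher (median -0.15). This was VIMP, a selenoprotein of the retrotranslocation machinery, which rose from 41.3 FPKM (31.1–51.5) to 108.9 FPKM (83.5–134).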

How the data were processed

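Total RNA of 4 libraries, 2 per cell line, was sequenced by the authors with paired reads of 150 bases, mapped to hg19 with TopHat 2.0 and quantified on GENCODE 19 with Cufflinks and cuffdiff. The deposited FPKM values and their bounds are pooled over the libraries of a cell line. Normalization of library sizes and use of strand are not given in the sources used here. Exon overlaps on both strands are therefore stated, but for some members only. Those not stated above include 14.2% for DNAJB11, 14.1% for MTHFD2, 9.77% for HYOU1 and 9.64% for CALR. Changes, calls and medians were calculated in Python 3.11.15 with NumPy 2.4.6 and pandas 2.3.3. A pseudocount of 1 was used, over genes of status OK with a mean FPKM of at least 0.5. Positions and exon overlaps came from GENCODE 44 on GRCh37, matched by Ensembl ID for all 38 members. This is a later release than the GENCODE 19 used for the FPKM. Whether the overlapping gene models were also in GENCODE 19 was not checked. Members and lists were chosen with earlier results of these data known. Full values are given for called members, the sensors and the largest changes of each arm. A limma fit between libraries had been planned and could not be run on pooled values. Protein sequences were not used here, so the planned reading of C-terminal ends was left out. Alternatives were other pseudocounts, filters, scalings, fold limits and arm assignments. Bounds widened by 10% were added after the data were seen.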

Additional observations from a re-analysis of the deposited data

How the results depend on the processing

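The ATF4 arm kept the higher median under all 8 alternatives of pseudocount, filter, scaling and arm assignment. The median of the chaperone arm was 0.22 after quantile normalization. With EIF2AK3 in the ATF4 arm and ATF6, ERN1 and XBP1 in the chaperone arm, the latter had 2 genes called higher. A fold of at least 2 on the scale of FPKM + 1 left 2 members called higher, 1 of them in the ATF4 arm. The fold alone added 2 members called lower, both in the ATF4 arm. Bounds widened by 10%, chosen after the data were seen, left 3 members called higher, 2 of them in the ATF4 arm. Of all genes tested, these wider bounds called 4.07% higher and 3.75% lower. PHGDH and WFS1 were called higher under all 11 alternatives that apply to single genes, and ATF4 under 10 of them. The sign of 36 members was the same under all of these, HSPA5 and EIF2AK3 being the exceptions. With a mean of at least 5 FPKM, 33 members were tested and ERN1 was not among them. No paired analysis was possible because the table gives 1 pooled value per cell line, and for the same reason no replicate could be left out. Precision at low FPKM is limited by the width of the bounds.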

Other observations

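Called genes of the further lists lay in unlike surroundings. All 15 protein-coding genes tested within 3 Mb of VIMP, near the end of chromosome 15 of GRCh37 (101811022–101817705), were higher in LM2-4175, with a median log2 ratio of 1.13 and 6 called higher. EIF2S3 and MBTPS2 lie close together on chromosome X (24073063 to 24096927 and 21857735 to 21903541). Of the neighbours of EIF2S3, 10 of 12 were lower (median -0.72), as were 16 of 19 neighbours of MBTPS2 (median -0.72), and these surroundings overlap. CEBPB, NUPR1, CARS, CEBPG and SLC7A5 had neighbours with medians between -0.03 and 0.03. The part of these surroundings in the calls was not tested.

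The bounds were wider for genes that share a locus with other genes in the table. Over all genes tested, the median distance of the upper bound in MDA-MB-231 was 43.97% for 9516 genes with a shared locus and 31.3% for 4395 genes without. Of all genes tested, 7.15% with a shared locus and 13.9% without were called. Of the 38 members, 22 share a locus and 1 of these was called (ASNS), and of the 16 that do not, 5 were called.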
